A study of Rattus norvegicus with 12 samples.

Results

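Myl1, Neb, Srl and Ckmt2 encode proteins of the contractile and energy apparatus of striated muscle, and all 4 had lower transcript levels in the spiral ganglion of deafened rats than in that of hearing rats. They are 4 of the 21829 gene symbols in the authors' normalized table. They were chosen by their measured values, as contractile and sarcoplasmic genes that were lower after deafening, so the deaf and hearing levels below are a description and carry no test. Acta1, Mylpf and Tnnt3, which encode abundant proteins of skeletal muscle fibres, were taken as 3 markers of muscle tissue in the dissection.

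The series measured total RNA of whole spiral ganglia from Sprague-Dawley rats. The ganglion houses the auditory neurons of the cochlea together with glia, vessels and connective tissue. Deafened rats received kanamycin, an aminoglycoside that kills hair cells, in daily intraperitoneal doses of 400 mg/kg between postnatal days 8 and 16 (P8 and P16), and hearing rats were littermates without injection. Ganglia were dissected free of bone, spiral ligament and organ of Corti on P32 or P60, with 3 biological replicates in each of 4 groups, named here P32 hearing, P32 deaf, P60 hearing and P60 deaf. How many animals a replicate pools is not stated in the labels. Hair cell loss cannot be told apart from the drug and from the injections, since only deafened rats had any of them.

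In a striated muscle fibre, myosin thick filaments slide along actin thin filaments inside sarcomeres. Calcium released from the sarcoplasmic reticulum starts the sliding, and creatine kinases buffer the ATP it uses. Myl1 encodes the essential light chains of fast skeletal myosin, and Neb encodes nebulin, the giant protein that lies along the thin filament. Srl encodes sarcalumenin, a calcium-binding glycoprotein of the sarcoplasmic reticulum, and Ckmt2 encodes the sarcomeric creatine kinase of mitochondria. The spiral ganglion holds no striated muscle of its own, although the small muscles of the middle ear lie close to the cochlea.

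Promoter windows are shown for the members that RefSeq lists, because 3 motifs of muscle promoters could be searched for in them. Each window has 250 bases before and 50 after a start site of the GRCr8 assembly, on the minus strand, printed 5′ to 3′ with the motif matches in capitals. Myl1 has 2 start sites, and reads counted per gene do not separate their transcripts. No entry was found for Srl.
Myl1, chr9:75907647-75907946: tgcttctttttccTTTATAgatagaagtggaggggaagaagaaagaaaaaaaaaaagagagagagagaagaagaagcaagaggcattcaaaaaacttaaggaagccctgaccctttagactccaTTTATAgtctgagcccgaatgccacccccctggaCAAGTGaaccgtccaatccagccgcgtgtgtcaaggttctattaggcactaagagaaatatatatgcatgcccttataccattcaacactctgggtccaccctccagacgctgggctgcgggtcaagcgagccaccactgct
Myl1, chr9:75897750-75898049: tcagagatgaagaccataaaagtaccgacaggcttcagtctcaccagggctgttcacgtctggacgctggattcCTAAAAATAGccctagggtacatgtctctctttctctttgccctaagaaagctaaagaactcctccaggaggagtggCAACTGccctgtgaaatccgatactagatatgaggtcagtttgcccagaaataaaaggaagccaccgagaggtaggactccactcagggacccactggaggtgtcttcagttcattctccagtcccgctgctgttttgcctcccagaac
Neb, chr3:57220660-57220959: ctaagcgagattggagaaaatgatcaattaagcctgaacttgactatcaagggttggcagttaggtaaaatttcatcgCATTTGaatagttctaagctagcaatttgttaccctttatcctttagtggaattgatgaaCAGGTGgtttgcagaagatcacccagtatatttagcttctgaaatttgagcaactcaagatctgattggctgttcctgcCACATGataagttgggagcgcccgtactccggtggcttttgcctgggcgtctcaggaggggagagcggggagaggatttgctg
Ckmt2, chr2:24845462-24845761: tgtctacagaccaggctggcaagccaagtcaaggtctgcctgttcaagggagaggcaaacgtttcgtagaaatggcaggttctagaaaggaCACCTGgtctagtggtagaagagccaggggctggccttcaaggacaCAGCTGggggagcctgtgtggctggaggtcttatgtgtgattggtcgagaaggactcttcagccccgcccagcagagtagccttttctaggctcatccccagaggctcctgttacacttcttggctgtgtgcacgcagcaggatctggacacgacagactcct

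The motifs were searched on both strands. The E-box CANNTG, the core bound by MyoD and many other helix-loop-helix factors, matched 1 time in each Myl1 window, 3 times in Neb and 2 times in Ckmt2, and 72.1% of all 33469 RefSeq windows of this length held it. The MEF2 box, bound by myocyte enhancer factors, matched 1 time in the second Myl1 window and is the longest run of capitals there; 3.29% of windows held it. The CArG box of serum response factor matched in none of these 4 windows and 1 time in that of Acta1, against 1.64% of all windows. TATAAA matched 2 times in the first Myl1 window, both on the opposite strand as TTTATA, and 14.2% of windows held it. No match overlapped another in the windows shown, and a match is a description of letters, not of binding.

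The libraries held 15646405 to 43453272 counted reads, so a level of 1 count per 1000000 reads (CPM) rested on 15.6 to 43.5 reads. The library P32 hearing replicate 3 stood apart: its median correlation with the other libraries was 0.949, against 0.977 to 0.990 for the other 11. The members' log2 fold changes between deaf and hearing rats at P32 are given with and without it. Other values include it unless stated. Levels are CPM after TMM scaling, differences are log2 fold changes ± SE from edgeR's quasi-likelihood fit to all 12 libraries, and called means a Benjamini-Hochberg adjusted p under 0.05 over 17789 tested genes. CPM is not scaled by transcript length, so levels are compared within a gene only. All 4 members and all 3 muscle markers passed the filter on low counts.

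Myl1 (ENSRNOG00000013262) was measured at 45.5, 44.7 and 116 CPM in P32 hearing replicates 1 to 3 and at 12.6, 10.7 and 16.2 CPM in P32 deaf. At P60 the levels were 43.2, 30.6 and 32 CPM in hearing and 5.31, 7.35 and 5.28 CPM in deaf libraries. Every deaf library lay below every hearing library at both ages, and P32 hearing replicate 3 lay far above the other hearing libraries. The log2 fold change was -2.38 ± 0.35 at P32, a level 5.22-fold lower, and -2.55 ± 0.36 at P60, a level 5.85-fold lower. With P32 hearing replicate 3 left out the P32 value was -1.80 ± 0.18, a level 3.49-fold lower. With all 12 libraries Myl1 had the largest difference of the 4 members at each age, and without that library Ckmt2 had it at P32, at -1.97 ± 0.24.

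Neb (ENSRNOG00000006783) was measured at 217, 218 and 348 CPM in P32 hearing and at 133, 129 and 151 CPM in P32 deaf libraries. The P60 levels were 302, 258 and 282 CPM in hearing and 136, 141 and 171 CPM in deaf libraries. The groups did not overlap at either age, and P32 hearing replicate 3 was again the highest library. The log2 fold change was -0.92 ± 0.18 at P32 (-0.67 ± 0.10 without that library) and -0.91 ± 0.18 at P60, levels 1.89-fold and 1.88-fold lower.

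Srl (ENSRNOG00000005269) was measured at 37.6, 32.9 and 15.9 CPM in P32 hearing and at 14, 14.2 and 18.7 CPM in P32 deaf libraries. P60 levels were 38.7, 35.7 and 42.8 CPM in hearing and 11.8, 9.42 and 8.53 CPM in deaf libraries. P32 hearing replicate 3 was here the lowest hearing library and fell below 1 deaf library, so the P32 groups overlapped; the P60 groups were far apart. The log2 fold change was -0.89 ± 0.26 at P32 and -1.98 ± 0.27 at P60, a level 3.94-fold lower. Left out, it no longer made the P32 groups overlap, and the value was then -1.19 ± 0.15.

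Ckmt2 (ENSRNOG00000055450) was measured at 3.78, 4.64 and 6.65 CPM in P32 hearing and at 1.18, 1.12 and 0.948 CPM in P32 deaf libraries. At P60 it was at 5.25, 5.57 and 6.61 CPM in hearing and at 2.27, 1.21 and 1.35 CPM in deaf libraries. The groups did not overlap at either age, but the deaf levels rested on few reads, 22 to 50 per library. The log2 fold change was -2.20 ± 0.28 at P32, a level 4.59-fold lower, and -1.85 ± 0.27 at P60, a level 3.61-fold lower.

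**Figure D1:**
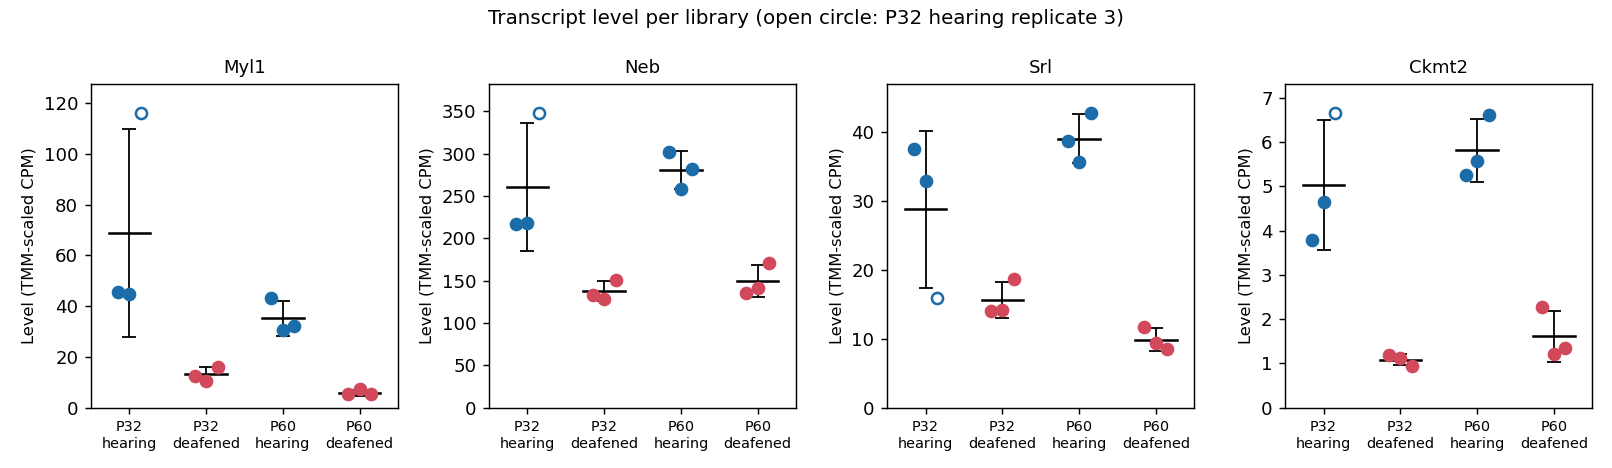
Levels of Myl1, Neb, Srl and Ckmt2 in TMM-scaled CPM (linear axes from 0) in the 12 libraries, by group, with the mean and SD of each group (n = 3). At P60 all deaf libraries lie below all hearing libraries for each gene; at P32 Srl is the exception, through P32 hearing replicate 3 at 15.9 CPM.

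For 3 of the 4 members at P32 and 4 of 4 at P60, every deaf library lay below every hearing library. Of all 17789 genes, 9.66% did so at P32, 16.2% at P60 and 4.2% at both ages, and nothing is read from the members' counts because they were chosen on these comparisons. By edgeR's adjusted p, 0.0899% of genes were called lower and 0.225% higher at P32, and 1.01% lower and 2.24% higher at P60. Without P32 hearing replicate 3 these shares were 2% and 1.55% at P32 and 9.55% and 8.84% at P60, of 18057 genes. In bulk tissue, fewer cells of a type and less RNA per cell cannot be told apart.

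The order of the group means differed among the 4 genes. Myl1 ran from P32 hearing (68.7 ± 40.8 CPM, SD, n = 3) through P60 hearing (35.2 ± 6.92) and P32 deaf (13.2 ± 2.79) to P60 deaf (5.98 ± 1.19), with no overlap between neighbouring groups. Neb ran from P60 hearing (281 ± 22.1 CPM) and P32 hearing (261 ± 75.1), which overlapped, to P60 deaf (149 ± 18.8) and P32 deaf (138 ± 12), which also overlapped. Srl ran from P60 hearing (39.1 ± 3.57 CPM) through P32 hearing (28.8 ± 11.4) and P32 deaf (15.6 ± 2.66) to P60 deaf (9.9 ± 1.67), and only the step between the deaf groups was free of overlap. Ckmt2 ran from P60 hearing (5.81 ± 0.708 CPM) and P32 hearing (5.02 ± 1.48), which overlapped, to P60 deaf (1.61 ± 0.574) and P32 deaf (1.08 ± 0.12), which did not. Myl1 and Srl thus had their lowest mean in P60 deaf ganglia, and Neb and Ckmt2 in P32 deaf ganglia. Shares of all genes without overlap were computed only between deaf and hearing groups of the same age. Nothing is read from the other separations.

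The comparison of P60 with P32 was not used to choose the members, although it draws on the same libraries, and it was tested within each condition. None of the 4 members was called in hearing rats, where 0.0731% of all genes were, and none in deaf rats, where 0.275% were. The share of all genes whose libraries separated between the ages was not computed, so nothing is read from such separations below. In deaf rats Myl1 was lower at P60 in 3 of 3 libraries, by -1.12 ± 0.35 on the log2 scale (edgeR adjusted p = 0.357), and Srl was lower in 3 of 3, by -0.65 ± 0.27 (edgeR adjusted p = 0.647). Neb and Ckmt2 had positive values there, at 0.11 ± 0.18 (edgeR adjusted p = 1) and 0.57 ± 0.29 (edgeR adjusted p = 0.929). Without P32 hearing replicate 3, a library that is in neither deaf group but enters the shared estimate of the spread, Myl1 and Srl fell with age in deaf rats. Their values were then -1.11 ± 0.19 (edgeR adjusted p = 0.00654) and -0.65 ± 0.14 (edgeR adjusted p = 0.0277), and 3.08% of all genes were called.

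In hearing rats the age differences were -0.96 ± 0.33 for Myl1 (edgeR adjusted p = 0.448), 0.10 ± 0.18 for Neb (0.763), 0.44 ± 0.26 for Srl (0.454) and 0.22 ± 0.25 for Ckmt2 (0.634). Myl1 was lower at P60 in 3 of 3 libraries, and the other members overlapped between the ages with all 12 libraries. With P32 hearing replicate 3 left out the Myl1 difference was -0.36 ± 0.18 (edgeR adjusted p = 0.694). Neb and Ckmt2 were then higher at P60 without overlap, at 0.37 ± 0.11 (edgeR adjusted p = 0.252) and 0.46 ± 0.21 (edgeR adjusted p = 0.644). Srl still overlapped. How many of all genes separated by age in that fit was not computed, so nothing is read from these separations. None of the 4 was called, against 0.227% of all genes. Whether the age difference itself differs between deaf and hearing rats was not tested.

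The 3 muscle markers were at low levels in every group. Acta1, skeletal alpha-actin (ENSRNOG00000017786), was measured at 1.21, 0.972 and 2.29 CPM in P32 hearing and at 1.32, 1.03 and 0.474 CPM in P32 deaf libraries. Its P60 levels were 1.01, 0.769 and 1.45 CPM in hearing and 0.772, 1.31 and 0.43 CPM in deaf libraries. The deaf and hearing libraries overlapped at both ages, with log2 fold changes of -0.62 ± 0.46 and -0.28 ± 0.48. With P32 hearing replicate 3 left out, the P32 means were 1.09 CPM in hearing and 0.94 CPM in deaf libraries.

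Mylpf, the regulatory light chain of fast skeletal myosin (ENSRNOG00000017645), was measured at 2.38, 2.69 and 1.85 CPM in P32 hearing and at 1.65, 2.48 and 2.02 CPM in P32 deaf libraries. At P60 it was at 2.73, 3.05 and 3.88 CPM in hearing and at 2.13, 1.84 and 2.46 CPM in deaf libraries. The groups overlapped at P32, but at P60 every deaf library was below every hearing library, with a log2 fold change of -0.60 ± 0.23 after -0.17 ± 0.23 at P32. Mylpf binds the same myosin heads as the Myl1 product, and its differences were smaller in size than the -2.38 and -2.55 of Myl1.

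Tnnt3, fast skeletal troponin T (ENSRNOG00000020332), was measured at 1.51, 1 and 0.545 CPM in P32 hearing and at 0.943, 2.08 and 1.55 CPM in P32 deaf libraries. At P60 it was at 1.09, 0.923 and 1.75 CPM in hearing and at 1.63, 1.97 and 2.15 CPM in deaf libraries. The groups overlapped at both ages and the deaf means were the higher ones, with log2 fold changes of 0.58 ± 0.38 and 0.62 ± 0.37. Of the 3 markers, 1 was lower without overlap at P60, where 16.2% of all genes were, and 0 at P32, where 9.66% were.

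**Figure D2:**
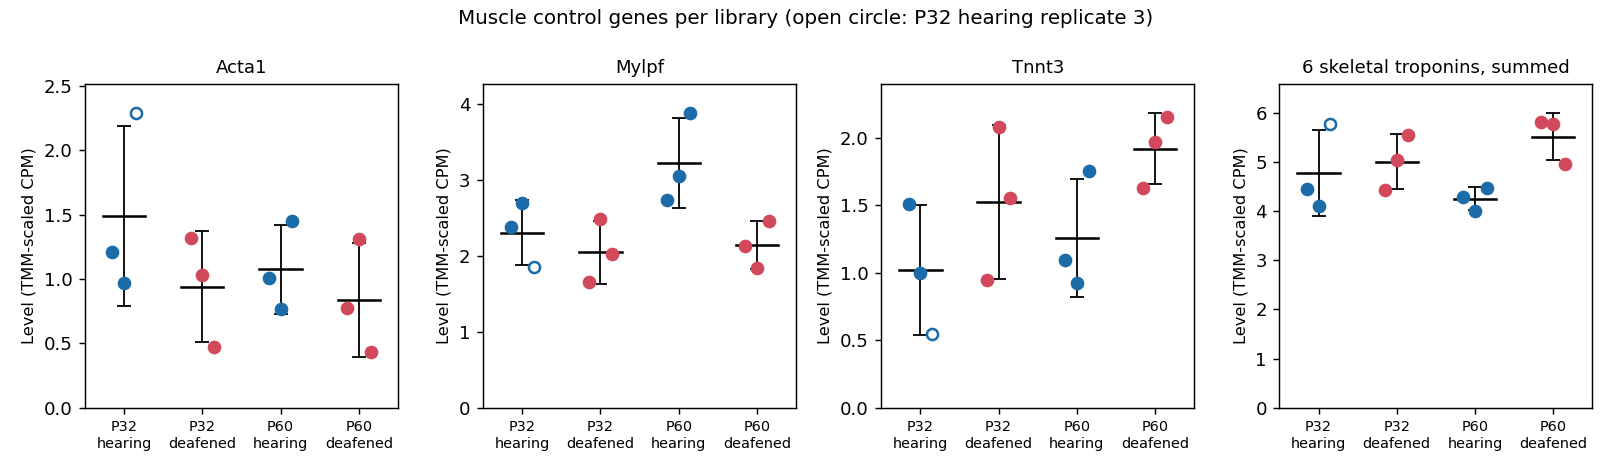
TMM-scaled CPM of Acta1, Mylpf and Tnnt3 and of the sum of 6 skeletal muscle troponins in the 12 libraries, with the mean and SD of each group (n = 3; linear axes from 0). Deaf and hearing libraries overlap in Acta1 and Tnnt3 at both ages, while Mylpf separates at P60.

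Other genes of the muscle apparatus were read from 6 lists of skeletal muscle genes, with 115 genes in all. Of these, 99 have a row in the tables and 83 were tested; the other 16, among them Myh1, Myh4, Myl2, Ttn and Atp2a1, were not analysed here. Without the 4 members, 79 were tested. At P32, 0 of the 79 were called lower and 0 higher, 40 had a negative value, and their median was -0.02, the same as the median of all genes. At P60, 2 were called lower and 0 higher (2.53% and 0%, against 1.01% and 2.24% of all genes), 38 had a negative value, and the median was 0.01 against 0.02 for all genes.

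The called genes were Tmod4 and Mylk2. Tmod4, a tropomodulin that caps the pointed end of thin filaments, was measured at 17.4, 13.7 and 15 CPM in P60 hearing and at 9.22, 9.45 and 8.65 CPM in P60 deaf libraries. It fell by 0.75 ± 0.16 on the log2 scale at P60 (edgeR adjusted p = 0.0242, lower in 3 of 3 libraries) and had a value of -0.59 ± 0.16 at P32 (edgeR adjusted p = 0.173). Mylk2, the myosin light chain kinase of skeletal muscle, was measured at 2.18, 1.66 and 1.92 CPM in P60 hearing and at 1.09, 0.591 and 0.737 CPM in P60 deaf libraries. It fell by 1.26 ± 0.28 at P60 (edgeR adjusted p = 0.0317, lower in 3 of 3 libraries) and had a value of -0.16 ± 0.25 at P32 (edgeR adjusted p = 0.757). Neither passed the test at P32. The calls at P60 depended on single libraries: leaving out 1 gave 0 to 13 called genes. With P60 deaf replicate 2, P60 hearing replicate 1 or P60 hearing replicate 3 left out there were 0. Tmod4 then ranged from -0.84 to -0.66 over all such fits (edgeR adjusted p = 0.000343 to 0.118) and Mylk2 from -1.56 to -1.06 (edgeR adjusted p = 0.00379 to 0.154).

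By role, the medians including the members were near 0 in most lists. The thick filament and M-band list (13 tested) had 0.07 at P32 and -0.05 at P60, and the thin filament list (12 tested) 0.02 and 0.14. The Z-disc and costamere list (19 tested) had 0.09 and 0.20, and the list of myogenic factors and motor endplate genes (11 tested) -0.10 and -0.03. The sarcoplasmic reticulum list, to which Srl belongs (14 tested), had -0.17 and -0.26, and the energy metabolism list, to which Ckmt2 belongs (15 tested), 0.03 and -0.19. The lowest list medians were thus those of the sarcoplasmic reticulum genes. With all 12 libraries, single genes reached the range of Neb and Srl without being called, and 2 are named after their values were seen. Fabp3, a fatty acid-binding protein of heart and muscle, had -1.01 at P32. Ryr1, the calcium release channel of skeletal muscle, had -1.03 at P60. Fabp3 ranged from 34.2 to 133 CPM over the 12 libraries, and its P32 value is not given without P32 hearing replicate 3.

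Among the 3 most abundant genes of each list, only Myl1 differed by more than 1 on the log2 scale. Mybpc1, a myosin-binding protein of slow fibres, was at 227 ± 81.2 and 192 ± 6.9 CPM in P32 hearing and deaf groups and at 274 ± 48.6 and 236 ± 33.7 CPM at P60 (SD, n = 3), groups that overlapped. Myom2 of the M-band had log2 fold changes of 0.30 ± 0.16 and 0.08 ± 0.16, and tropomyosins Tpm1 and Tpm2 had -0.04 and -0.13 at P32 and 0.18 each at P60. At the Z-disc, Flnc, an actin-binding filamin, had 0.40 ± 0.22 and 0.76 ± 0.22 (edgeR adjusted p = 0.408 and 0.0859), while Pdlim5 had 0.07 and 0.20 and Dysf -0.02 and -0.36. With the members, which carry no test here, left aside, none of these genes was called with all 12 libraries.

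In the membrane system of the reticulum, Asph had 0.00 at P32 and -0.10 at P60, the ion channel gene Tmem38a -0.08 and -0.39, and Trdn, which encodes triadin, -0.42 and -0.02. With P32 hearing replicate 3 left out, the P32 hearing mean of Trdn was 17.7 CPM, below the deaf mean of 21.2 CPM. Of the energy genes, Slc25a4, the adenine nucleotide carrier of heart and muscle mitochondria, had -0.25 ± 0.14 and -0.41 ± 0.14 (edgeR adjusted p = 0.408 and 0.142). The glycolytic gene Pfkm had -0.09 ± 0.17 and -0.54 ± 0.17 (edgeR adjusted p = 0.809 and 0.133). Pvalb, a calcium buffer of fast fibres and of many neurons, had -0.81 ± 0.22 and -0.65 ± 0.22 (edgeR adjusted p = 0.192 and 0.153). The P32 hearing means of Slc25a4, Pfkm and Pvalb were 664, 505 and 760 CPM. Without P32 hearing replicate 3 they were 724, 584 and 582 CPM, beside P32 deaf means of 558, 475 and 432 CPM. Mef2c had -0.15 and 0.26, and Rapsn, which anchors receptors at the motor endplate, had -0.02 and -0.38. None was called with all 12 libraries.

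Without P32 hearing replicate 3, 4 of 82 tested list genes were called lower at P32 (4.88% against 2% of all genes), namely Fabp3, Pvalb, Pfkm and Slc25a4. At P60, 12 of 82 were then lower (14.6% against 9.55%) and 1, Flnc, higher (1.22% against 8.84%). Among the 12 were Ryr1, Tmod4, Rapsn, Mylk2, Fabp3, Pvalb, Pfkm and Slc25a4, and also Mylpf, 1 of the 3 muscle markers. Medians remained near 0, at -0.05 and -0.01.

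Several transcripts of the skeletal muscle lists, picked after their values were seen, were near 0 in every library. Ckm, muscle creatine kinase, was at 0.042 to 0.341 CPM with 65 reads over the 12 libraries, and Mb, myoglobin, at 0 to 0.184 CPM with 27 reads. Cacna1s, the calcium channel of the triad, was at 0 to 0.179 CPM, Tnni1, slow troponin I, at 0 to 0.128 CPM, and each had 0 reads in 3 libraries. Tnni2, fast troponin I, was at 0.0545 to 0.318 CPM, Actc1 at 0 to 0.25 CPM, and the muscle stem cell gene Pax7 at 0 to 0.128 CPM. Myh2, a fast myosin heavy chain, was not near 0. Its group means were 8.61 CPM in P32 hearing, 11.6 in P32 deaf, 6.37 in P60 hearing and 10 in P60 deaf ganglia. The deaf mean was the higher at both ages, with log2 fold changes of 0.44 and 0.66. Myh2 was not called, and its single libraries ranged from 2.17 to 14 CPM. Other genes of these lists, such as Myom2, Actn2, Ldb3 and Casq1, were not near 0 either. Their means over the 12 libraries were 17.8, 11.8, 11.5 and 7.62 CPM.

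Summed levels moved in different directions for different sets of muscle genes. The sum over the 95 list genes with a row, members left out, was 3235 to 3563 CPM in P32 hearing, 2770 to 2854 in P32 deaf, 3262 to 3441 in P60 hearing and 2637 to 2894 in P60 deaf libraries. These ranges did not overlap between deaf and hearing ganglia, and the sum consists largely of Slc25a4, Pvalb and Pfkm, which other tissues also express. The sum of 6 skeletal muscle troponins, a set chosen after its values were seen, was 4.11 to 5.78 CPM in P32 hearing and 4.43 to 5.56 in P32 deaf libraries. At P60 it was 4 to 4.48 CPM in hearing and 4.97 to 5.81 in deaf libraries, where every deaf library was the higher. The part of muscle fibres in the members' levels was not tested beyond these values.

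**Figure D3:**
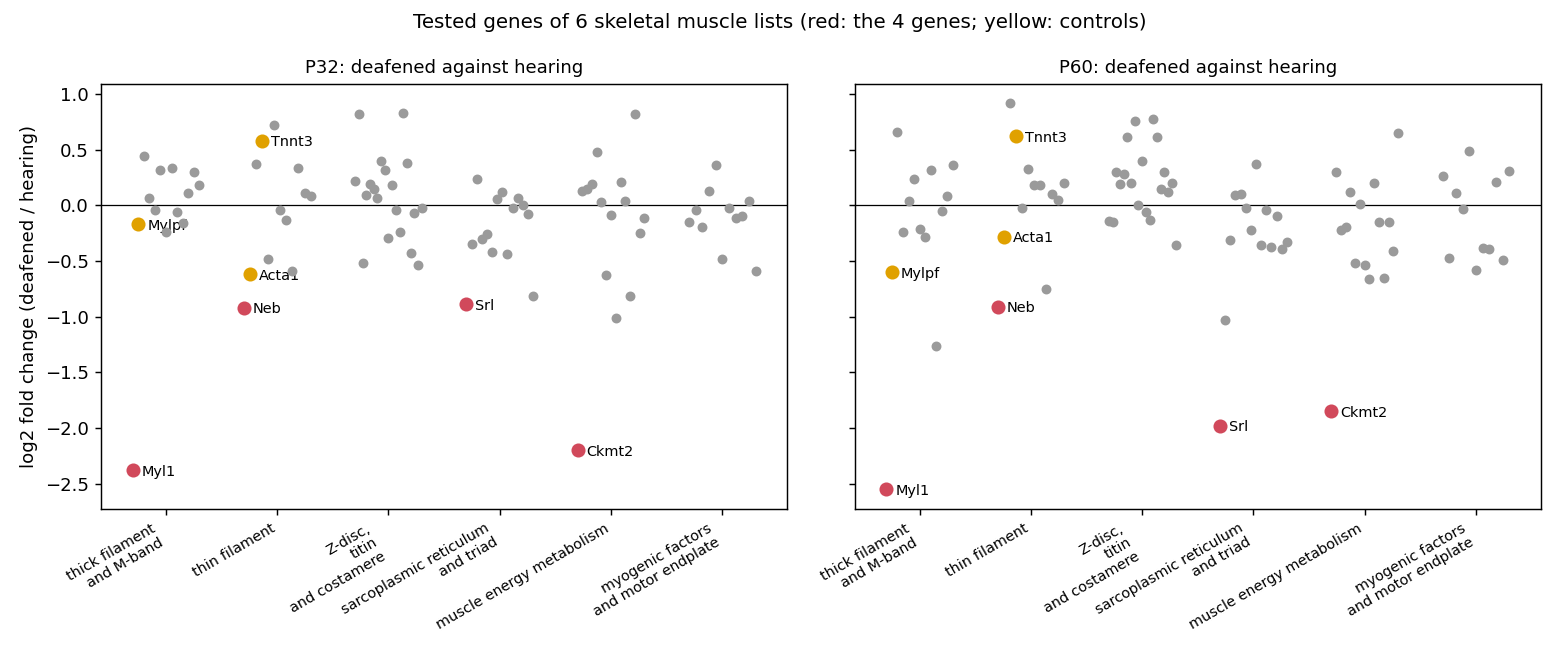
Log2 fold change of deaf against hearing ganglia at P32 and P60 for the tested genes of the 6 skeletal muscle lists, 1 point per gene and list, with the members and the muscle markers Acta1, Mylpf and Tnnt3 marked. Most points lie between -0.5 and 0.5, and Myl1 at -2.38 and -2.55 lies lowest.

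Related genes of other cells gave a second point of comparison. Ckmt1, the ubiquitous form of the mitochondrial creatine kinase and nearest relative of Ckmt2, was measured at 267, 255 and 258 CPM in P60 hearing and at 175, 134 and 151 CPM in P60 deaf libraries. It fell by 0.76 ± 0.15 at P60 (edgeR adjusted p = 0.0157, lower in 3 of 3 libraries) and had -0.56 ± 0.15 at P32 (edgeR adjusted p = 0.166). Cytosolic Ckb had -0.52 ± 0.24 and -0.59 ± 0.24 (edgeR adjusted p = 0.384 and 0.24). Ckb was at 347, 406 and 177 CPM in P60 deaf replicates 1 to 3, and at 477, 477 and 448 CPM in P60 hearing. Both kinases had values of the same sign as Ckmt2 but smaller in size.

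None of the relatives of the other members was called with all 12 libraries. Nebl, which encodes the nebulin-related protein nebulette, had -0.10 ± 0.10 and 0.08 ± 0.10, and Lasp1 of the same family 0.31 ± 0.15 and 0.25 ± 0.15. Among myosin light chains of non-muscle and smooth muscle cells, Myl6 had -0.36 and 0.10, Myl12a -0.18 and 0.50, Myl12b 0.03 and -0.40, and Myl9 -0.26 and -0.01. In P60 deaf replicates 1 to 3 Myl12b was at 41, 45.8 and 17.1 CPM, against 44.1, 43.8 and 49.8 CPM in P60 hearing. Its P60 value thus rested largely on P60 deaf replicate 3. With P32 hearing replicate 3 left out, the P32 hearing means of Myl6, Myl12a and Myl9 were 313, 79 and 35.3 CPM. These lay below their P32 deaf means of 334, 97.2 and 38.2 CPM. The Ehd genes, membrane-remodelling ATPases that share a domain with sarcalumenin, ranged from -0.05 (Ehd1) to 0.30 (Ehd2) at P32 and from -0.24 (Ehd3) to 0.42 (Ehd2) at P60. Of 12 such genes tested, 0 were called at P32 and 1, Ckmt1, was lower at P60, where 1.01% of all genes were. In the fit without P32 hearing replicate 3, Ckmt1 was also called at P32 (-0.70 ± 0.10, edgeR adjusted p = 0.00414), where 2% of all genes were lower. At P60 that fit called Ckmt1 and Ehd3 lower and Ehd2 and Myl12a higher, 2 of 12 each way against 9.55% and 8.84% of all genes. Ehd3 was at -0.26 ± 0.07, Ehd2 at 0.40 ± 0.12 and Myl12a at 0.47 ± 0.08 (edgeR adjusted p = 0.0176, 0.0338 and 0.00177). With 1 library left out Ckmt1 ranged from -0.88 to -0.68 (edgeR adjusted p = 0.000151 to 0.0996), and it was no longer called without P60 deaf replicate 2 or 3 or without any 1 of the 3 P60 hearing replicates.

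Markers of the neurons moved with the members. Of 20 spiral ganglion neuron genes, 17 had a negative value at P32 with a median of -0.43, and 18 at P60 with a median of -0.70. With all 12 libraries 1 was called lower at P32 (Calb2) and 5 at P60 (Slc17a7, Snap25, Elavl4, Prox1 and Calb2), which is 5% and 25% of them against 0.0899% and 1.01% of all genes. Without P32 hearing replicate 3 the numbers were 11 and 17, or 55% and 85%, against 2% and 9.55% of all genes. Other single libraries also mattered: 1 neuron gene was called at P60 without P60 deaf replicate 2, P60 hearing replicate 1 or P60 hearing replicate 3, and at P32 all but 2 of the other 11 omissions gave 0. Their summed level was 10134 to 12058 CPM in P32 hearing, 7287 to 7573 in P32 deaf, 11370 to 12736 in P60 hearing and 6443 to 7617 in P60 deaf libraries, with no overlap between deaf and hearing. The part of these neurons in the members' fall was not tested.

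Each member was therefore also set against that sum, as its level per 10000 CPM of neuron genes. Myl1 was at 64.6 ± 43.1 in P32 hearing (39.7 without replicate 3) and 17.6 ± 3.48 in P32 deaf, and at 29 ± 4.25 and 8.85 ± 2.28 at P60 (SD, n = 3). Srl was at 26 ± 9.72 (31.1 without replicate 3) and 20.9 ± 3.37 at P32, and at 32.3 ± 2.55 and 14.4 ± 1.11 at P60. Ckmt2 was at 4.64 ± 1.67 (3.68 without replicate 3) and 1.45 ± 0.167 at P32, and at 4.82 ± 0.656 and 2.32 ± 0.583 at P60. Relative to the neuron genes these 3 had lower means in deaf ganglia, without overlap at P60, and at P32 Srl overlapped through P32 hearing replicate 3. The share of all genes without overlap was not computed on this scale. The members were chosen on these comparisons, so nothing is read from the separation.

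Neb differed from the other members on this scale. It was at 242 ± 88.2 in P32 hearing (192 without replicate 3) and 185 ± 13.9 in P32 deaf, and at 232 ± 5.18 in P60 hearing and 220 ± 43.2 in P60 deaf ganglia. The ranges were 181 to 343 in hearing and 176 to 201 in deaf libraries at P32, and at P60 the hearing range of 227 to 237 lay inside the deaf range of 179 to 265. Relative to this sum, Neb was thus at overlapping levels in deaf and hearing ganglia at both ages. The sum includes Calb2, whose pattern was the nearest to that of Neb, as described below. With Calb2 taken out of the sum, the P32 means of Neb were 349 in hearing (243 without replicate 3) and 225 in deaf ganglia. At P60 they were 309 and 285, and ranges without Calb2 are not given.

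**Figure D4:**
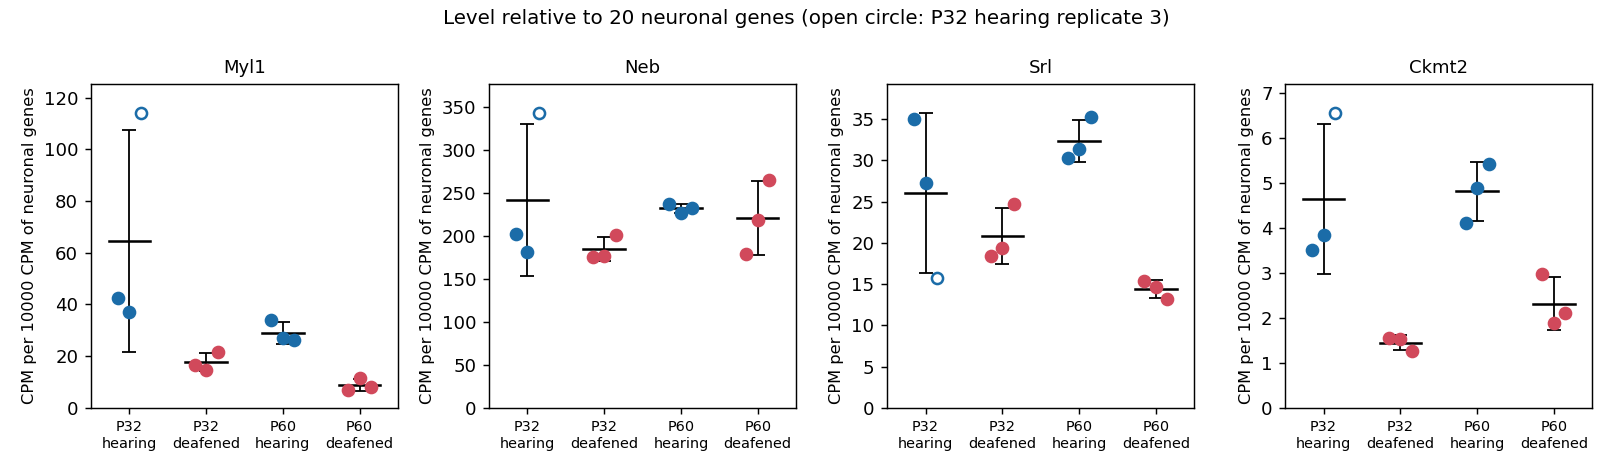
Level of each member per 10000 CPM of the 20 spiral ganglion neuron genes in the 12 libraries, by group, with mean and SD (n = 3; linear axes from 0). Deaf and hearing ranges of Neb overlap at P60, and those of Myl1, Srl and Ckmt2 do not.

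Other cell types were read from further lists, in which no gene was called lower with all 12 libraries. Sums are given below in the order P32 hearing, P32 deaf, P60 hearing and P60 deaf. Of 15 smooth muscle and mural cell genes 0 were called with or without P32 hearing replicate 3, with medians of 0.14 and 0.09, and the sums of 671 to 857, 742 to 805, 721 to 846 and 744 to 887 CPM overlapped between deaf and hearing libraries. Of 8 tested cardiac genes 0 were called, with medians of -0.05 and 0.15. Their sums were 206 to 374, 302 to 324, 319 to 362 and 249 to 278 CPM, lower in deaf libraries without overlap at P60.

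Of 10 Schwann cell genes 0 were called, with medians of 0.04 and -0.15. Their sums were 27209 to 32862, 27938 to 29749, 20828 to 22983 and 19708 to 20737 CPM, also lower in deaf libraries without overlap at P60. Of 12 hair cell genes 0 were called, with medians of -0.07 and -0.58 and 11 negative values at P60, and their sums of 26.5 to 33.5, 31.3 to 40.9, 35.5 to 41.9 and 25.3 to 37.1 CPM overlapped. Of 12 macrophage genes 4 were higher at P32 and 10 at P60, against 0.225% and 2.24% of all genes, with sums of 251 to 369, 464 to 482, 277 to 349 and 655 to 838 CPM. When P32 hearing replicate 3 was left out, 12 of 12 macrophage genes were higher at both ages (1.55% and 8.84% of all genes). In that fit 1 gene each of the cardiac (Ryr2), hair cell (Strc) and Schwann cell (Ncmap) lists was called lower at P60, against 9.55% of all genes, and 0 at P32. The part of these cell types in the members' levels was not tested.

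Genes whose pattern was most like each member were found among 13323 genes as those with the smallest root mean square difference of centred log2 CPM over the 12 libraries. Points share their libraries and depth, so this is a description. For Neb these were Calb2, the calcium-binding calretinin, at 0.10, then Piwil2 (0.14), Cd24 (0.15), Sh3bgr (0.16) and Car12 (0.17). Calb2 had log2 fold changes of -1.14 and -1.02, beside -0.92 and -0.91 for Neb. The 0.10 was the smallest of the members' nearest differences, but Neb also varied least of the 4 members. Its centred log2 CPM ran from -0.60 to 0.83, against -1.92 to 2.52 for Myl1, so these differences do not rank the members. Calb2 was also the nearest gene to Neb without P32 hearing replicate 3, at 0.09.

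For Srl the nearest were Gjd2, a neuronal gap junction gene, at 0.28, Colq, the collagen tail of acetylcholinesterase, at 0.35, the transcription factor gene Prox1 at 0.36, and Kcnc1, a potassium channel gene, and Col6a5 at 0.38 each. For Myl1 they were Tnmd, the tendon protein tenomodulin, at 0.54, Hsd17b2 at 0.55, Fndc3c1 at 0.58, Hcrtr2 at 0.63 and Ocm2 at 0.67. For Ckmt2 they were the orexin receptor gene Hcrtr2 at 0.48, Zfp804a at 0.51, Calb2 at 0.54, Cdh9 at 0.55 and Hsd17b2 at 0.57. Without P32 hearing replicate 3, 3 of 5 remained for Myl1, 2 for Neb, 3 for Srl and 2 for Ckmt2.

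The members were not each other's nearest genes with all 12 libraries. Myl1 and Ckmt2 differed by 0.82, Myl1 and Srl by 0.95 and Myl1 and Neb by 0.96, and the other pairs by 0.61 to 0.70. The size of this difference grows with how much a gene's level varies, and the ranks ran otherwise. By closeness to Myl1, Ckmt2 ranked 12, Srl 46 and Neb 49 among the 13323 genes. By closeness to Neb, Srl ranked 8611 and Ckmt2 9146, and by closeness to Srl, Ckmt2 ranked 1253. When P32 hearing replicate 3 was left out, Myl1 and Srl differed by 0.42 and Srl was the second nearest of the 13323 genes to Myl1, after Col6a5 at 0.29. Likeness between these genes therefore moved with that library, in which Myl1 was high and Srl low.

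**Figure D5:**
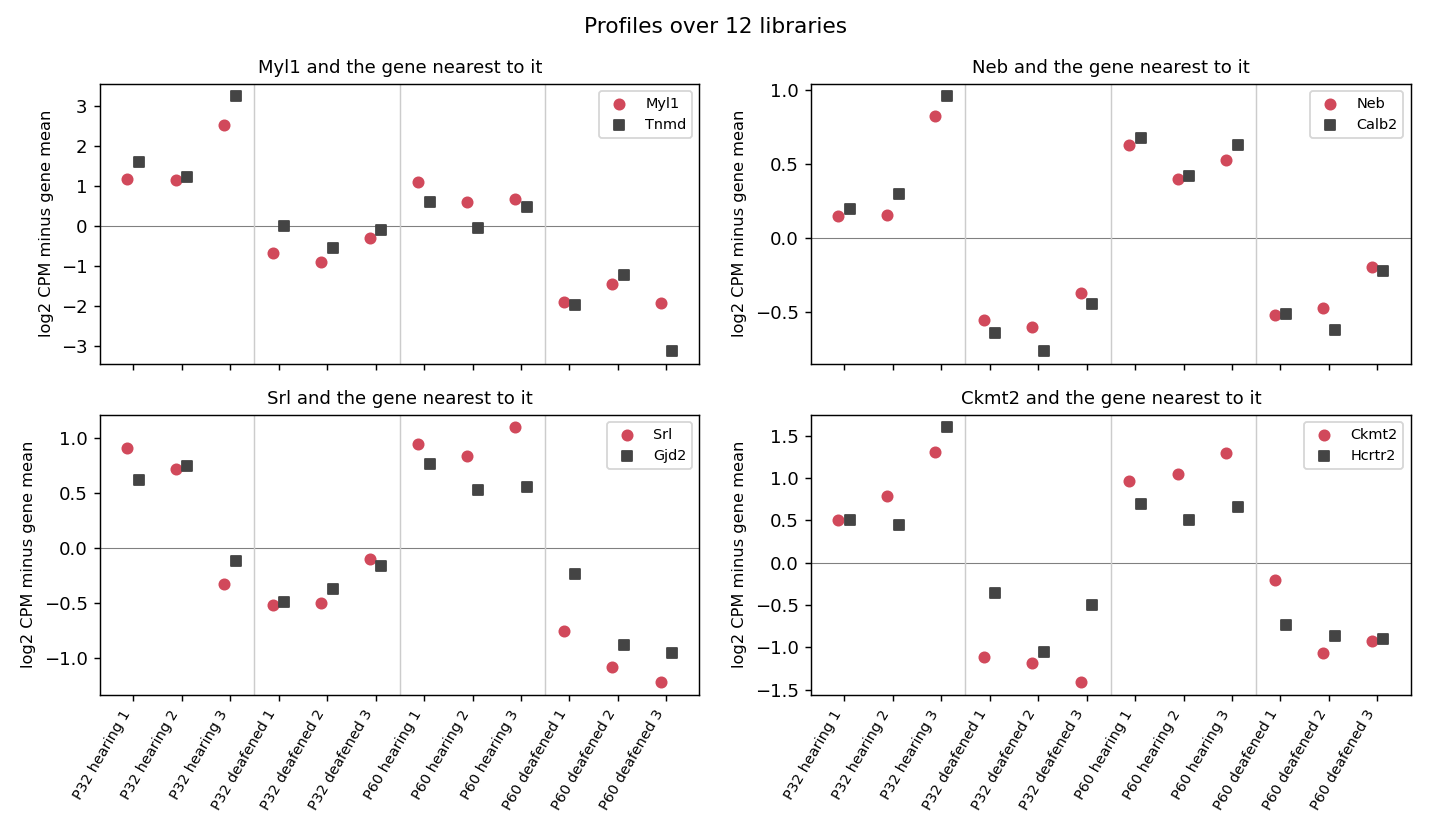
Log2 CPM minus the gene's mean over the 12 libraries, 1 panel per member, with the member (circles) and its nearest gene (squares: Tnmd for Myl1, Calb2 for Neb, Gjd2 for Srl, Hcrtr2 for Ckmt2). The difference is smallest between Neb and Calb2 (0.10), where Neb also varies least of the members. P32 hearing replicate 3 is the highest library for Myl1 and Neb and the lowest hearing library for Srl.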

How the data were processed

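RNA was measured in 12 libraries of rat spiral ganglion. The deposited count table holds the authors' raw read counts per Ensembl gene, 1 column per library. Each library had been sequenced on 3 lanes, per the labels. The deposited normalized signal of 21829 symbols in 11 libraries is the authors' counts divided by size factors; P32 hearing replicate 3 has no column there. It paired symbols with gene IDs: values times size factors gave whole reads within 0.1 for 100% of values, and each symbol matched exactly 1 ID. Tools named in the submitters' processing notes, with no role or order, are DESeq2 1.32.0, STAR 2.7.0b, Subread 1.6.3 with featureCounts, Trimmomatic, SAMtools and bcl2fastq 2.20. Build and strandedness: not given in the sources used here.

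Counts were fitted in edgeR 4.0.16 (R 4.3.3): genes kept by filterByExpr (17789), TMM scaling, 1 mean per group and all 12 libraries in 1 quasi-likelihood model, two-sided, called at an adjusted p under 0.05. The SE is the log2 fold change divided by the square root of F. Log2 CPM used a prior count of 2. The fit was tested on simulated data. Replicates are biological, per the series' design. Depth was 15646405 to 43453272 reads.

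The members, the gene lists and the tests were chosen with earlier results of these data known. Named genes are the members, the 3 muscle markers and called genes of the muscle lists. Also named are the 3 genes of highest mean CPM in each muscle list, related genes of at least 1 CPM and the 5 nearest genes per member. The genes of highest mean CPM in the other lists are not described as such, and not every gene chosen this way is reported. Genes called in a fit without P32 hearing replicate 3 and the defining muscle transcripts were named after their values were seen. Alternatives were other size factors, no filter, DESeq2 1.42.0, a replicate block, only the 6 libraries compared, each library left out, and, added after seeing the data, the authors' normalized values.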

Additional observations from a re-analysis of the deposited data

How the results depend on the processing

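Direction did not depend on the settings tried for any member: of 144 member values for deaf against hearing ganglia, 142 moved by less than the spread between replicates, 2 moved further and none reversed. Myl1 at P32 was -1.77 with the authors' normalized values, which lack P32 hearing replicate 3, and Ckmt2 at P60 ranged from -2.20 to -1.67 when 1 library was left out, lowest without P60 deaf replicate 1. Of 136 age values 133 kept their side of the threshold. Myl1 in deaf rats was also called with only the 6 libraries compared (-1.12, edgeR adjusted p = 0.0366); leaving out 1 library gave -1.32 to -0.96 for Myl1 and -0.80 to -0.51 for Srl there.

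Counts of called genes were less stable. In the order P32 and P60 deaf against hearing, then age in hearing and in deaf rats, edgeR called 56, 578, 13 and 49 genes, DESeq2 451, 1299, 160 and 247, and edgeR on only the 6 libraries compared 0, 1940, 1 and 208. Without a filter on low counts 21 were called for age in hearing rats. Leaving out 1 library gave 5 to 641, 111 to 3321, 1 to 41 and 6 to 557, highest in each case without P32 hearing replicate 3. At an unadjusted p under 0.05 the main fit had 2302, 2748, 1814 and 1141 genes. Of the muscle list genes besides the members, DESeq2 called 3 at P32 and 5 at P60, the 6 libraries alone 8 at P60, and leaving out 1 library 0 to 4 and 0 to 13. The causes were not tested.

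With the replicate number as a block edgeR called 63, 727, 11 and 46 genes. Same-numbered libraries correlated at -0.0348 to 0.157 in their deviations from the group means over 12 pairs, and not every library correlated best with its own number. With 3 libraries per group these values cannot settle whether the numbers pair the samples, and the main fit did not use them as pairs. Among the 4 members depth limits Ckmt2 most, with 22 reads in the lowest library.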
